A study of Mus musculus with 18 samples.

Results

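An embryonic stem cell line homozygous for the Min allele of Apc (Apc Min/Min ESC) was set against reprogrammed colon tumour cells (RTCs), the pluripotent cells in which the series studied Apc mutations. The comparison used 4 of the 18 arrays of the series: 1 array of the Apc Min/Min ESC line and 3 arrays of RTC lines, called RTC 1, RTC 2 and RTC 3 after their numbers. Genes were described when the log2 intensity in the Apc Min/Min ESC array lay at least 1 above the highest or at least 1 below the lowest of the 3 RTC arrays, that is at least 2-fold outside the RTC range. Of 11774 genes tested, 611 (5.19%) met this rule, 279 above the range and 332 below it. The Apc Min/Min ESC line is represented by a single array, so its own spread is unknown. RTCs were made from colon tumour cells by induced pluripotency, and the labels do not give their Apc genotype. They place RTCs and ESCs in Knockout DMEM with serum and LIF, and list separately an Apc Min/Min ESC culture in TS medium, which contains FGF4 and no stated LIF. The title of the Apc Min/Min ESC array does not say which medium its cells had. Apc genotype, tumour or embryo origin, medium, cell line and any difference in how the arrays were scaled therefore cannot be told apart in this comparison.

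Other arrays served as context and, where stated, for the estimate of spread. These were 2 derivatives of the RTCs (from RTC 1 and RTC 3), whose change from their parent lines the labels do not give, the heterozygous Apc Min/+ ESC line, the Apc +/+ ESC line, S33-ES cells without doxycycline (dox), and embryonic fibroblasts (MEFs) derived from the RTC 1 derivative and not given 4-hydroxytamoxifen (4-OHT), each on 1 array except the MEFs with 2. The labels do not say that arrays of a group are independent cultures, and p-values measure only the spread between these arrays, which may be technical.

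Apc is part of the complex that marks beta-catenin for destruction. When Apc is truncated, as by the Min allele, beta-catenin accumulates, enters the nucleus and activates Wnt target genes with TCF/LEF factors. In mouse ESCs moderate Wnt signalling sustains self-renewal, strong activation is known to shift differentiation, and in the colon loss of Apc starts adenomas.

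Both kinds of cell carried the pluripotency markers at high levels. Pou5f1, the core pluripotency factor also called Oct4, stood at 12.91 in Apc Min/Min ESC, against 12.98, 13.13 and 13.16 in RTC 1, 2 and 3. Nanog, its partner, stood at 13.38 in Apc Min/Min ESC, against 13.26, 13.42 and 13.48 in the RTCs, so this gene lay within the RTC range. Over 6 pluripotency markers the mean log2 intensity was 12.07 in Apc Min/Min ESC and 12.35, 12.31 and 12.35 in the RTCs. Markers of gut epithelium averaged 7.37 in Apc Min/Min ESC and 7.34 to 7.39 in the RTCs, below the array median of 7.93. These means joined markers that differed in direction. Lgr5 stood at 8.32 in Apc Min/Min ESC and 6.32 to 6.48 in the RTCs, and Cdx1 at 9.31 and 10.07 to 10.40. Fabp2, Muc2 and Vil1 were below the array median in all 4 arrays. Across genes, the correlation of Apc Min/Min ESC with the RTC arrays was 0.962 to 0.967, against 0.982 to 0.995 among the RTCs. Between 1132 and 1340 genes stood at least 2-fold apart in a pair of Apc Min/Min ESC with 1 RTC, against 23 to 410 in a pair of RTCs, where RTC 1 stood apart from RTC 2 and RTC 3. The deposited median intensity was 227 in Apc Min/Min ESC, against 202, 317 and 314 in RTC 1, 2 and 3. Identical deposited values filled 17.3% of probe sets between Apc Min/Min ESC and Apc +/+ ESC and 0% between Apc Min/Min ESC and any RTC.

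The Apc Min/Min ESC value lay at least 2-fold above the RTC range for 2.37% of the genes tested and at least 2-fold below it for 2.82%. Outside the range by any amount were 33.8% of genes above and 40.5% below, so lying outside it is common and the 2-fold gap is what selects. In a limma fit that took its spread from the RTC, derivative and ESC arrays, 761 genes (6.46%) passed an adjusted p of 0.05, of which 307 (2.61%) were higher and 454 (3.86%) lower in Apc Min/Min ESC, and 2963 passed an unadjusted p of 0.05. This fit assumes that the lone Apc Min/Min ESC array varies as the others do, and it reads the same 4 arrays as the gap, so a p-value beside a gap is no independent support for it. Of the genes outside the range, limma called 205 of 279 above and 243 of 332 below. The number of calls moved with single arrays. Leaving out RTC 3 left 100 calls and leaving out RTC 2 left 297, while leaving out Apc +/+ ESC or Apc Min/+ ESC left 372 or 329. Leaving out either derivative gave 1341 calls. On the values as deposited it was 47, and with arrays centred on their median 435, of which 229 were higher and 206 lower. The 2-fold rule counted 989 genes without RTC 1, and on deposited values 407, of which 127 were above the range. Of 81 named genes called by limma, 18 kept their call in every alternative run: Nr4a3, Ereg, Has2, G530011O06Rik, Fgl2, Tas2r135, Tnfrsf12a, Csf1, Enpep and Inhba above, and Crxos, Phlda2, Sdf2l1, Kyat3, Aoc1, Fam111a, Slc38a3 and Cd3e below. The other called genes lost their call under at least 1 alternative, 54 of the 81 without RTC 3, 24 without RTC 2 and 13 without RTC 1.

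**Figure D1:**
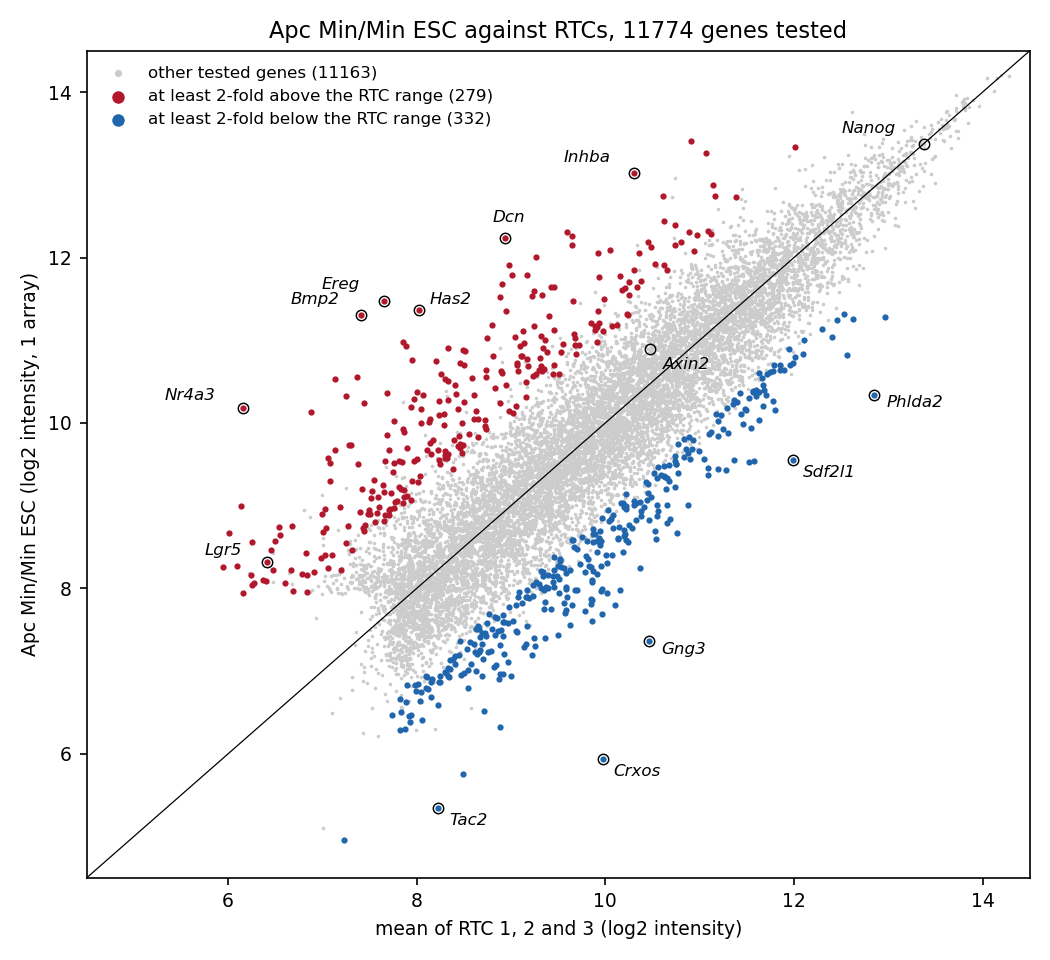
Log2 intensity in the Apc Min/Min ESC array (vertical) against the mean of the 3 RTC arrays (horizontal), 1 point for each of 11774 genes tested, with the line of equality. Red points mark the 279 genes at least 2-fold above the RTC range and blue points the 332 genes at least 2-fold below it; circled genes are named in the text, with Nanog and Axin2 near the line.

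The rule has a limit, and genes lie close to it on both sides. Just past it were Chpf2 at 9.44 in Apc Min/Min ESC, against 8.37, 8.36 and 8.44 in RTC 1, 2 and 3, and Tgfbrap1 and Mir679, and just short of it were Igsf11, Krt18 and Shtn1. Krt18, a simple-epithelium keratin, stood at 12.16 in Apc Min/Min ESC, against 9.64, 11.16 and 10.19 in the RTCs. Below the range, Coch, Dhodh and Wbp2nl lay just past the limit and Rhebl1, Atp6v1c2 and Zfp449 just short of it. Dhodh, an enzyme of pyrimidine synthesis, stood at 8.58 in Apc Min/Min ESC, against 9.61, 9.58 and 9.74 in the RTCs. Of the 279 genes above the range, 77 had all 3 RTC arrays at or below the array median and so entered the test through the Apc Min/Min ESC array alone. Of the 332 below it, 128 had Apc Min/Min ESC at or below the array median. The median level of the genes above the range was 10.24 in Apc Min/Min ESC and 8.22, 8.60 and 8.46 in RTC 1, 2 and 3, with 8.82 in Apc +/+ ESC, 8.85 in Apc Min/+ ESC, 8.59 in S33-ES without dox and 10.11 and 10.03 in the MEFs without 4-OHT. For the genes below the range it was 8.26 in Apc Min/Min ESC and 9.80, 9.81 and 9.85 in the RTCs, with 9.47 in Apc +/+ ESC, 9.57 in Apc Min/+ ESC and 8.38 and 8.32 in the same MEFs. The rule itself sets Apc Min/Min ESC apart from the RTCs in both sets, so that part of these medians is no result. Choosing genes by the Apc Min/Min ESC array can also widen its distance from the context arrays.

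The genes farthest above the RTC range included growth factors, cytokines, surface receptors and matrix proteins beside an immediate-early transcription factor. Nr4a3, an orphan nuclear receptor induced quickly by many stimuli, stood at 10.18 in Apc Min/Min ESC, against 5.71, 6.43 and 6.34 in RTC 1, 2 and 3, and was 4.02 ± 0.39 higher on the log2 scale (SE, limma, adjusted p = 0.00394). Ereg, which encodes the EGF receptor ligand epiregulin, stood at 11.47 in Apc Min/Min ESC, against 7.89, 7.57 and 7.51 in the RTCs, a difference of 3.81 ± 0.49 (limma, adjusted p = 0.00795). Has2, a hyaluronan synthase, stood at 11.37 in Apc Min/Min ESC, against 7.69, 8.22 and 8.17 in the RTCs (difference 3.34 ± 0.37, adjusted p = 0.00435). For all 3 genes the RTC arrays lay within 1 log2 unit of each other and far below the Apc Min/Min ESC array. Ereg reached 8.61 in Apc +/+ ESC, 9.01 in Apc Min/+ ESC and 10.30 and 9.80 in the MEFs, and Nr4a3 reached 6.13 in Apc +/+ ESC and 8.19 and 8.29 in the MEFs.

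Ch25h, which makes 25-hydroxycholesterol, stood at 10.55 in Apc Min/Min ESC, against 7.30, 7.44 and 7.35 in the RTCs, with 10.03 and 10.06 in the MEFs. Fgl2, a fibrinogen-like secreted protein, stood at 10.14 in Apc Min/Min ESC, against 6.61, 7.16 and 6.85 in the RTCs. Tas2r135, a bitter taste receptor, stood at 8.99 in Apc Min/Min ESC, against 6.18, 6.21 and 6.03 in the RTCs. Fgl2 and Tas2r135 were low in every context array, at 6.93 and 6.27 in Apc +/+ ESC and at most 7.41 and 6.29 in the MEFs. Tas2r143, a receptor of the same family on the same chromosome 6, stood at 8.27 in Apc Min/Min ESC, against 6.27, 6.11 and 5.90 in the RTCs. Enpep, a membrane aminopeptidase that cleaves angiotensin, stood at 10.33 in Apc Min/Min ESC, against 6.88, 7.85 and 7.01 in the RTCs and 6.22 in Apc +/+ ESC. An uncharacterised transcript, G530011O06Rik, stood at 10.53 in Apc Min/Min ESC, against 7.50, 7.29 and 6.62 in the RTCs, also far outside their range.

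Signalling proteins were also among the 15 farthest above. Csf1, the macrophage growth factor, stood at 12.0025 in Apc Min/Min ESC, against 9.01, 9.44 and 9.36 in the RTCs. Inhba, whose product forms activin A, stood at 13.03 in Apc Min/Min ESC, against 9.78, 10.65 and 10.50 in the RTCs. Tnfrsf12a, the receptor of the cytokine TWEAK, stood at 11.79 in Apc Min/Min ESC, against 8.85, 9.09 and 9.09 in the RTCs. Csf1, Inhba and Tnfrsf12a rose by 2.73 ± 0.27, 2.72 ± 0.32 and 2.78 ± 0.29 (limma, adjusted p = 0.00394, 0.00530 and 0.00394), and Apc +/+ ESC stood lower than Apc Min/Min ESC in all 3, at 10.61, 11.15 and 9.77. The MEFs stood near or above it, at 12.89 and 12.30 for Csf1, 12.81 and 12.66 for Inhba and 11.35 and 11.22 for Tnfrsf12a. Bmp2, a ligand of the bone morphogenetic protein family, stood at 11.31 in Apc Min/Min ESC, against 6.76, 8.78 and 6.69 in the RTCs, so RTC 2 stood apart from the other two RTC arrays. Its difference was 3.90 ± 0.79 (limma, adjusted p = 0.0270, and 0.0108 to 0.0811 over the alternatives, the highest without RTC 3). Thbd, the coagulation receptor thrombomodulin and a marker of parietal endoderm, stood at 11.68 in Apc Min/Min ESC, against 8.48, 9.20 and 9.02 in the RTCs (adjusted p = 0.0391, up to 0.0992 without RTC 3). Dpt, a matrix protein, stood at 8.67 in Apc Min/Min ESC, against 6.05, 6.08 and 5.90 in the RTCs, but at 8.64 in Apc +/+ ESC, and limma did not call it (adjusted p = 0.0624).

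**Figure D2:**
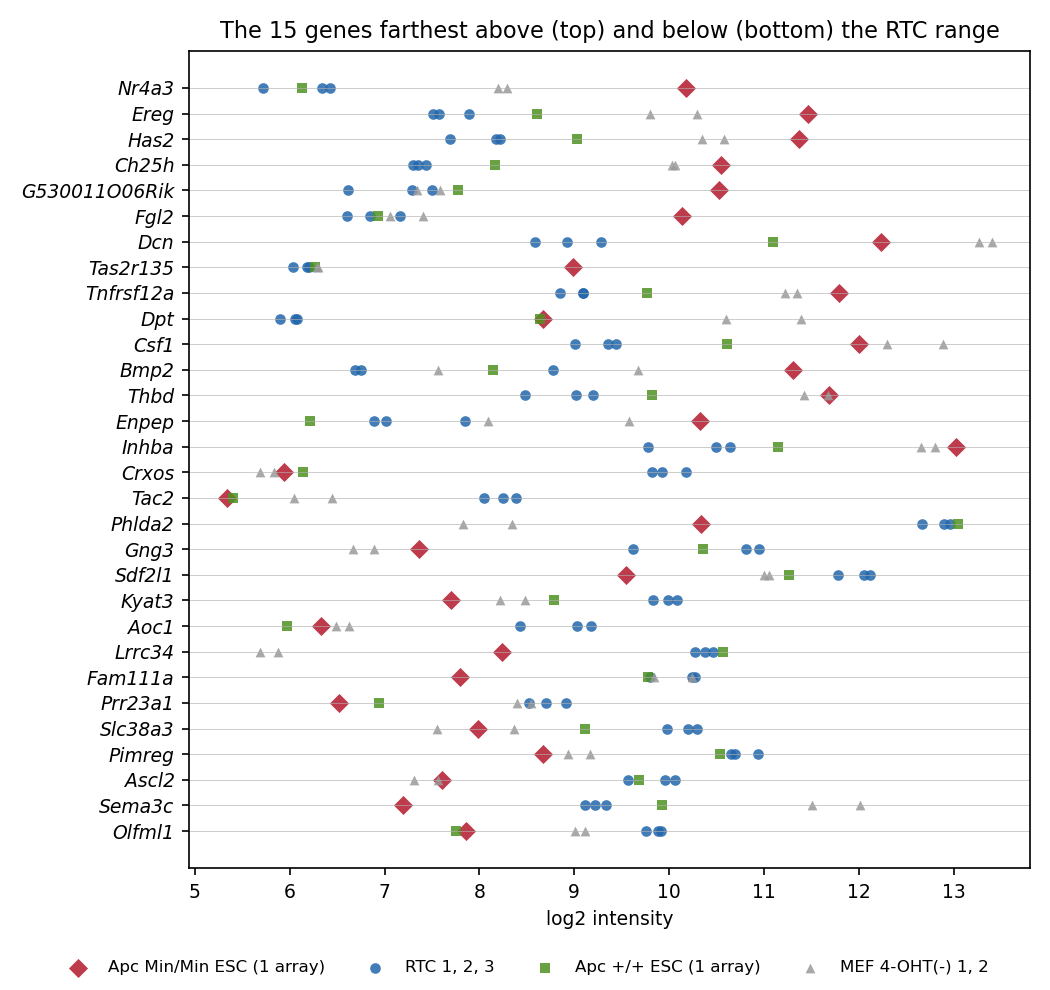
Log2 intensity (horizontal) of the 15 genes farthest above the RTC range, top, and the 15 farthest below it, bottom, in the Apc Min/Min ESC array (red diamonds), the 3 RTC arrays (blue circles), the Apc +/+ ESC array (green squares) and 2 arrays of MEFs without 4-OHT (grey triangles). Each symbol is 1 array. By the rule that chose the genes, red and blue never overlap. Dpt has red and green together at 8.67 and 8.64, and Crxos has red at 5.94 with blue at 9.82 and above.

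The genes of the EGF and ERK list, ligands, receptors and the phosphatases and factors that ERK signalling induces, held 6 members above the range and 0 below among 26 tested. Over all genes tested, 2.37% lay above the range and 2.82% below. Of these 26, limma called 7 higher and 1 lower, and their median difference was 0.65, against -0.05 over all genes. Hbegf, the heparin-binding EGF receptor ligand, stood at 12.06 in Apc Min/Min ESC, against 9.96, 9.91 and 9.90 in the RTCs (difference 2.13 ± 0.33, adjusted p = 0.0123). Fosl1, an AP-1 subunit also called Fra-1, stood at 11.11 in Apc Min/Min ESC, against 9.00, 9.15 and 9.23 in the RTCs (adjusted p = 0.0418, up to 0.125 on deposited values). Dusp5 and Dusp4, phosphatases that switch ERK off, rose by 1.70 ± 0.28 and 1.60 ± 0.36, and Fgfr2, a receptor for FGFs, by 1.32 ± 0.27. Fgfr2 had 8.77 in Apc Min/Min ESC, against 7.44, 7.41 and 7.50 in the RTCs, and 9.53 in Apc +/+ ESC, so here the RTC arrays were the low ones. Spred1, an inhibitor of this pathway, also rose, by 1.02 ± 0.20. Etv1, a transcription factor downstream of FGF signalling, fell by 1.22 on the log2 scale with an SE of 0.30. Egr1, an immediate-early factor of the same pathway, stood at 10.56 in Apc Min/Min ESC, against 10.81, 8.64 and 8.72 in the RTCs, where RTC 1 alone was high, and was not called (adjusted p = 0.524).

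Fosl1 is a subunit of AP-1, and the promoters of the genes outside the range were searched for the AP-1 motif TGANTCA, which reads the same on both strands, in windows from 250 bases before to 50 bases after each start site (RefSeq, build GRCm38.p6). Windows were found for 9428 of the 11774 genes, and 532 of these genes, or 5.64%, held the motif in at least 1 window. It was present for 18 of 193 genes above the range with a window (9.33%) and for 16 of 265 below it (6.04%). The TCF/LEF motif CTTTGAT, searched on both strands, was present for 3.14% of all genes, 2 genes above the range (1.04%) and 8 below it (3.02%). The sterol motif TCACNCCAC was present for 1.34% of all genes, 0.518% above the range and 1.51% below it. Among genes with a window, 0 of 16 of the EGF and ERK list held the AP-1 motif. For the Wnt targets described below, 2 of 12 held the TCF/LEF motif, and 0 of the 2 of these outside the range. In the sterol and fatty acid list, 1 of 19 held the sterol motif, and 0 of the 5 outside the range. A match describes letters in a window and is not a measured binding site. The windows of the 4 genes farthest above the range that hold TGANTCA are shown, 5′ to 3′ on the gene's strand, with the motif in capitals, and none of these matches overlapped the other motifs searched.
Fgl2, chr5:21372423-21372722, plus strand: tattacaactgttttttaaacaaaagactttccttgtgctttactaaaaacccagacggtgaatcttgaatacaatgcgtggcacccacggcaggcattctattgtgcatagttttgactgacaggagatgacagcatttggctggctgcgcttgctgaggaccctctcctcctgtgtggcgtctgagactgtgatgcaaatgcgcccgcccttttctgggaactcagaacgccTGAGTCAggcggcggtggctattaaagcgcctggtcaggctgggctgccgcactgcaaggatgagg
Serpinb2, chr1:107511173-107511472, plus strand: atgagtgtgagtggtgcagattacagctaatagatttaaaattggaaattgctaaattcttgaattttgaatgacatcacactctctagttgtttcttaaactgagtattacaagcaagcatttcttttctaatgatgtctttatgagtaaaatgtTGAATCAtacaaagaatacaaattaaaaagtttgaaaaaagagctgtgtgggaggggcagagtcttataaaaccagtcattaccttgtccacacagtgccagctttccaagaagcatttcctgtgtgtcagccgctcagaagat
Srxn1, chr2:152105274-152105573, plus strand: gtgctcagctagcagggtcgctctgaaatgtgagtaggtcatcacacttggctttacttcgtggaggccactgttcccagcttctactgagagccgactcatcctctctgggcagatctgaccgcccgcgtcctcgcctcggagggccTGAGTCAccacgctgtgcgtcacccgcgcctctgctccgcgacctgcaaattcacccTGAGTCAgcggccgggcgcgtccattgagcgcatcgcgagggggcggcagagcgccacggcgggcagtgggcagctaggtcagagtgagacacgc
Il11, chr7:4778092-4778391, minus strand: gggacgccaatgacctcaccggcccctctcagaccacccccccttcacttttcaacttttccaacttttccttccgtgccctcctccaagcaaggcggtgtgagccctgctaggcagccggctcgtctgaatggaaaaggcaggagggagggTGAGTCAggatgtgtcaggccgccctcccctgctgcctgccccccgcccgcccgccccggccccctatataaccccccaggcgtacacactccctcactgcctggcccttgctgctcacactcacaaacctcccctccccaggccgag
Counted from the start site, the first base of the match was at -16 in Fgl2, -94 in Serpinb2, -102 and -45 in Srxn1 and -98 in Il11, where only 1 of the 2 windows of the gene held it. Serpinb2, an inhibitor of plasminogen activators, stood at 9.58 in Apc Min/Min ESC, against 6.73, 7.43 and 7.03 in the RTCs. Srxn1, sulfiredoxin, which restores oxidised peroxiredoxins, stood at 11.55 in Apc Min/Min ESC, against 9.17, 9.46 and 9.37 in the RTCs. Il11, a cytokine of the IL-6 family, stood at 9.30 in Apc Min/Min ESC, against 6.91, 7.12 and 7.22 in the RTCs. All 3 genes and Fgl2 were called higher, and in each the RTC arrays lay within 1 log2 unit of each other.

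The array also carries probe sets for microRNA genes, which read the transcribed locus or precursor and not the mature strand. This group was looked at after its values were seen. Of 66 microRNA genes tested, 9 lay above the range and 0 below it, and 7 of the 9 were called by limma, with a median difference of 0.57 over the 66. Over all genes tested 2.37% lay above the range and 2.61% were called higher, with a median difference of -0.05. Their median level was 8.50 in Apc Min/Min ESC, 8.16, 7.90 and 8.04 in RTC 1, 2 and 3 and 7.88 in Apc +/+ ESC. RTC 1 was at least 1 log2 unit above the other two RTC arrays for 13 of the 66, so these probe sets varied among the RTCs as well. The 3 farthest above the range are shown by the mature strands that RefSeq (GRCm38.p6) gives for each hairpin, with bases 2 to 8, the seed, in capitals.
mmu-miR-15a-5p, chr14:61632075-61632096, minus strand: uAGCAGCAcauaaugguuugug
mmu-miR-15a-3p, chr14:61632038-61632059, minus strand: cAGGCCAUacugugcugccuca
mmu-miR-674-5p, chr2:117185151-117185172, plus strand: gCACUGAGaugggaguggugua
mmu-miR-674-3p, chr2:117185186-117185207, plus strand: cACAGCUCccaucucagaacaa
mmu-miR-382-5p, chr12:109733781-109733802, plus strand: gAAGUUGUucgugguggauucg
mmu-miR-382-3p, chr12:109733819-109733840, plus strand: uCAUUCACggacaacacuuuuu
Mature strands were taken from RefSeq for the microRNA genes above the range except Mir145a, and no seed occurred more than once among the strands taken. Mir15a, whose product is known to restrain cyclins and Bcl2 in human cells, stood at 10.91 in Apc Min/Min ESC, against 8.86, 8.01 and 8.13 in the RTCs (difference 2.57 ± 0.35, adjusted p = 0.00917). Mir674 stood at 10.38 in Apc Min/Min ESC, against 8.60, 7.56 and 7.84 in the RTCs. Mir382, from the imprinted Meg3 region of chromosome 12, stood at 8.10 in Apc Min/Min ESC, against 6.55, 6.24 and 6.32 in the RTCs, and 7.25 in Apc +/+ ESC.

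Among the genes farthest below the range, Crxos stood alone. This homeobox gene, known from mouse preimplantation embryos, had 5.94 in Apc Min/Min ESC, against 10.18, 9.82 and 9.93 in RTC 1, 2 and 3, and fell by 4.04 on the log2 scale with an SE of 0.24 (limma, adjusted p = 0.000533). It was also low in Apc +/+ ESC at 6.14, in Apc Min/+ ESC at 6.22 and in S33-ES at 6.52, so the RTC arrays were the high ones. Obox6, another homeobox gene of the early mouse embryo, stood at 10.04 in Apc Min/Min ESC, against 11.52, 11.69 and 11.67 in the RTCs and 7.74 in Apc +/+ ESC, and was not called (adjusted p = 0.156). Tac2, the precursor of neurokinin B, stood at 5.34 in Apc Min/Min ESC, against 8.05, 8.39 and 8.25 in the RTCs, and 5.40 in Apc +/+ ESC. Aoc1, a diamine oxidase, and Olfml1 had a like order: 6.33 and 7.86 in Apc Min/Min ESC, RTC values from 8.43 to 9.18 and from 9.76 to 9.92, and 5.98 and 7.76 in Apc +/+ ESC. In these 4 called genes, Crxos, Tac2, Aoc1 and Olfml1, Apc Min/Min ESC was within 1 log2 unit of Apc +/+ ESC.

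Other genes of this group were lower in Apc Min/Min ESC than in both the RTCs and the other ESC arrays, some by little. Prr23a1 stood at 6.52 in Apc Min/Min ESC and 6.945 in Apc +/+ ESC. Ascl2, Kyat3 and Sema3c stood at 7.61, 7.70 and 7.19 in Apc Min/Min ESC and 8.09, 8.45 and 8.07 in S33-ES. Phlda2, an imprinted gene known to limit placental growth, stood at 10.34 in Apc Min/Min ESC, against 12.67, 12.90 and 12.97 in the RTCs, and 13.05 in Apc +/+ ESC, 13.10 in Apc Min/+ ESC and 13.29 in S33-ES. It fell by 2.51 on the log2 scale with an SE of 0.26 (limma, adjusted p = 0.00394). Fam111a, a nuclear protease, stood at 7.79 in Apc Min/Min ESC, against 9.80, 10.28 and 10.24 in the RTCs, and at 9.78 in Apc +/+ ESC. Sdf2l1, a chaperone partner of the endoplasmic reticulum, stood at 9.55 in Apc Min/Min ESC, against 11.79, 12.05 and 12.12 in the RTCs. Gng3, a G protein gamma subunit, stood at 7.36 in Apc Min/Min ESC, against 9.62, 10.81 and 10.95 in the RTCs, where RTC 1 was the lowest (adjusted p = 0.0207, up to 0.0680 without RTC 3). Kyat3, a kynurenine aminotransferase, Slc38a3, a glutamine transporter, and Pimreg, a mitotic regulator, fell by 2.27, 2.17 and 2.10. For Phlda2, Fam111a, Sdf2l1, Kyat3, Slc38a3 and Pimreg the RTC arrays lay within 1 log2 unit of each other. Ascl2, Lrrc34, Prr23a1 and Sema3c were also among the 15 farthest below and were not called, with adjusted p of 0.0505, 0.0635, 0.0508 and 0.172.

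Gene lists were read by their counts beside the whole table, since the lists were chosen with earlier results of these data known. In every count of genes in these lists, above or below the range means at least 2-fold outside it, unless any amount is stated. Each count stands beside 2.37% of all genes tested above the range and 2.82% below. Counts of limma calls stand beside the shares called over all genes given above. Some list counts, as 1 of 33 cell cycle genes below the range, are near these shares. Among lists with at least 10 genes tested, the largest shares above the range were in the primitive endoderm and fibroblast lists, and the largest share below it was in the list of choline, glycine and threonine enzymes.

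**Figure D3:**
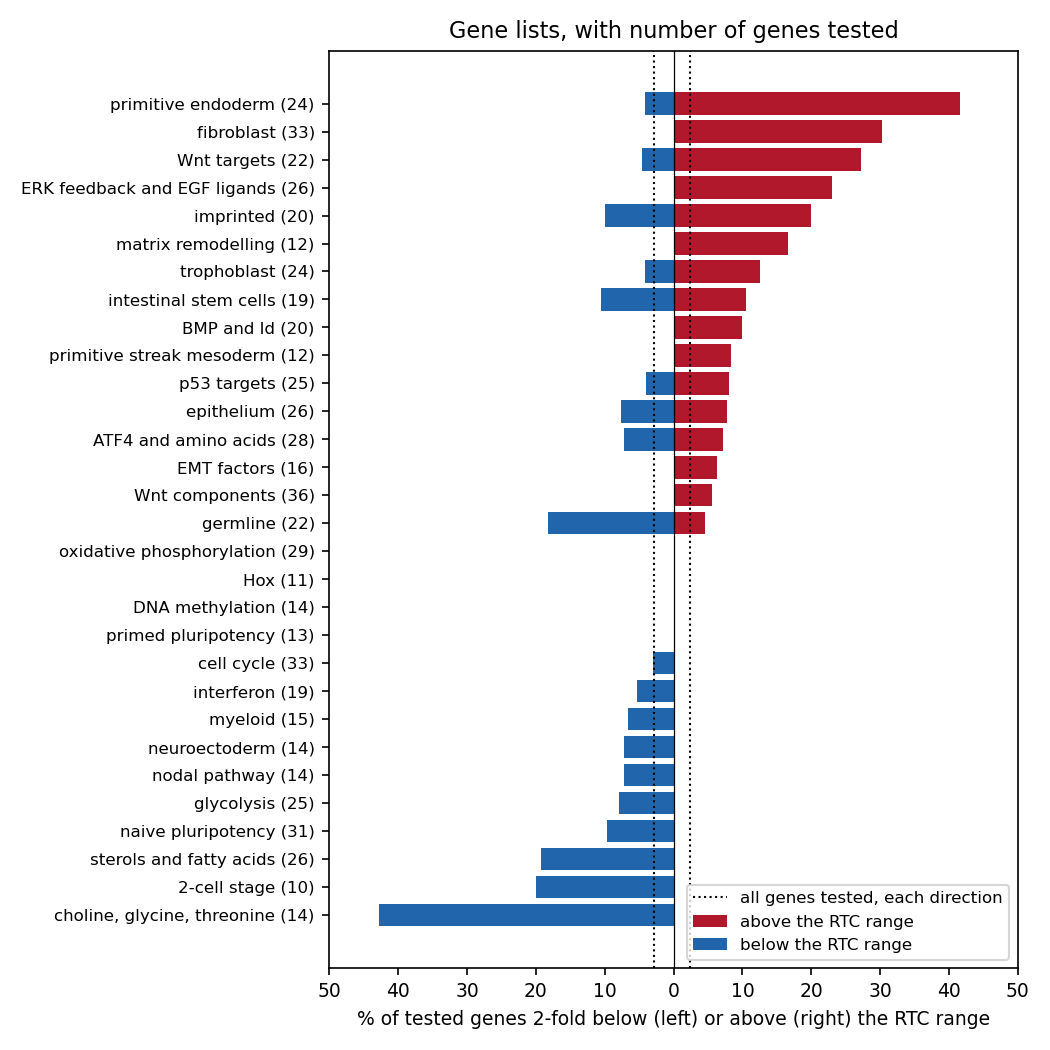
Share of each list's tested genes at least 2-fold above (red, right) or below (blue, left) the RTC range, in percent, for lists with at least 10 tested genes, whose number stands in brackets. Dotted lines give the same shares over all genes tested, 2.37% above and 2.82% below; the primitive endoderm bar stands for 10 of 24 genes above and the choline, glycine and threonine bar for 6 of 14 below.

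Primitive endoderm is the extraembryonic lineage that arises beside the pluripotent epiblast and forms the lining of the yolk sac. Of 24 genes of its list tested, 10 lay above the range and 1 below, and limma called 4 higher and 1 lower. Their median difference was 1.24, against -0.05 over all genes, of which 2.37% lay above the range and 2.82% below. Sox17, a transcription factor of endoderm, stood at 10.93 in Apc Min/Min ESC, against 6.54, 9.01 and 8.10 in the RTCs, and was 3.05 ± 0.71 higher (limma, adjusted p = 0.0417, up to 0.0998 without RTC 3). Gata4, which specifies this lineage together with Gata6, stood at 11.60 in Apc Min/Min ESC, against 8.42, 9.99 and 9.32 in the RTCs, and was 2.36 ± 0.47 higher (adjusted p = 0.0269, up to 0.104 on deposited values). In both genes RTC 1 was lowest and RTC 2 highest of the RTC arrays. Gata6 stood at 11.65 in Apc Min/Min ESC, against 8.24, 10.19 and 9.83, and Pdgfra, a growth factor receptor that marks the lineage, at 11.53, against 8.22, 9.62 and 8.81, and neither passed (adjusted p = 0.0693 and 0.0516).

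The basement membrane chains of the same list were outside the range together. Lama1, a laminin chain, stood at 12.19 in Apc Min/Min ESC, against 10.07, 11.01 and 10.26 in the RTCs, and rose by 1.75 ± 0.36 (adjusted p = 0.0301). Col4a1, Col4a2 and Lamb1, its collagen and laminin companions, had differences of 1.73, 1.83 and 1.69 with adjusted p of 0.0518, 0.0522 and 0.0527, and did not pass. Foxa2 and Sox7, with differences of 1.13 each, lay less than 2-fold outside the range. Apoa2, an apolipoprotein made by visceral endoderm, went the other way, at 8.59 in Apc Min/Min ESC, against 10.11, 10.10 and 10.20 in the RTCs (adjusted p = 0.00812). The 5 defining markers, Gata4, Gata6, Sox17, Sox7 and Pdgfra, averaged 10.97 in Apc Min/Min ESC, against 7.77, 9.45 and 8.86 in the RTCs and 7.97 in Apc +/+ ESC. All 5 were above the array median in Apc Min/Min ESC, and 3, 5 and 5 of them in RTC 1, 2 and 3. In the MEFs without 4-OHT the 5 markers averaged 8.74 and 9.01. There Gata6 stood at 10.39 and 10.57 and Pdgfra at 10.88 and 11.29, while Sox17 stood at 6.35 and 6.54 and Gata4 at 8.17 and 8.79. Thbd and Fst, also of this list and above the range, stood at 11.42 and 11.67 and at 11.43 and 11.06 in the MEFs. Part of the list is thus shared with fibroblasts, and their part in these values was not tested. In bulk arrays, more cells of a type and more RNA per cell cannot be told apart. On deposited values 4 of the list's genes lay above the range in place of 10.

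**Figure D4:**
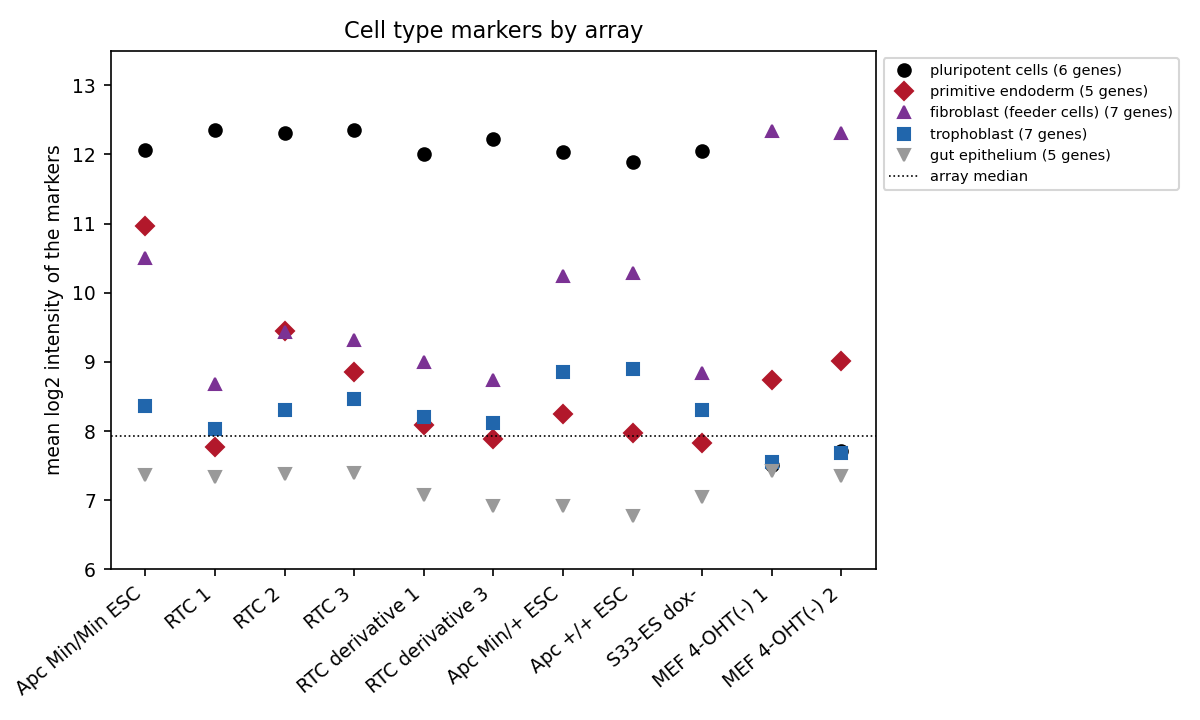
Mean log2 intensity (vertical) of the markers of 5 cell types in 11 arrays (horizontal), with Apc Min/Min ESC at the left, the 3 RTC arrays next and the context arrays after them; the dotted line is the array median of 7.93. Each symbol is the mean over the genes of that type in 1 array: primitive endoderm markers stand at 10.97 in Apc Min/Min ESC and at 7.77 to 9.45 in the RTCs, and fibroblast markers at 10.50 in Apc Min/Min ESC and at 10.29 in Apc +/+ ESC.

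Wnt target genes are the readout nearest to Apc. Of 22 targets tested, 6 lay above the range and 1 below, and limma called 7 higher and 0 lower. The median difference of the 22 targets was 0.52, against -0.05 over all genes, of which 2.37% lay above the range and 2.82% below. Sox17 and Fst, both also of the primitive endoderm list, are in this list too. Fst stood at 11.71 in Apc Min/Min ESC, against 9.96, 10.42 and 10.38 in the RTCs, and was not called. Axin2, the negative feedback gene often used as a readout of beta-catenin activity, stood at 10.90 in Apc Min/Min ESC, against 10.57, 10.44 and 10.41 in RTC 1, 2 and 3, with 8.41 in Apc +/+ ESC and 8.61 in Apc Min/+ ESC. Its difference of 0.43 ± 0.30 did not pass (adjusted p = 0.400, and 0.168 to 0.868 over the alternatives). Apc itself stood at 10.97 in Apc Min/Min ESC, against 10.20, 10.08 and 10.04 in the RTCs, and Ctnnb1, which encodes beta-catenin, at 13.00, against 12.55, 12.72 and 12.65, and neither was called (adjusted p = 0.0858 and 0.262). The array does not read the Min point mutation. Cdx2, a caudal homeobox gene of gut and trophoblast, stood at 9.48 in Apc Min/Min ESC, against 8.34, 8.98 and 9.12 in the RTCs, and 7.04 in Apc +/+ ESC, and was not called (adjusted p = 0.248).

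The called targets beside Sox17 were Dkk1, Sox9, Lgr5, Myc, Apcdd1 and Notum. Dkk1, a secreted Wnt inhibitor, stood at 11.91 in Apc Min/Min ESC, against 7.69, 9.89 and 9.34 in the RTCs, and was 2.93 ± 0.69 higher (limma, adjusted p = 0.0424, up to 0.0927 without RTC 3). Sox9, a transcription factor of progenitor cells, stood at 10.51 in Apc Min/Min ESC, against 7.91, 8.78 and 8.30 in the RTCs (2.18 ± 0.32, adjusted p = 0.0111). Lgr5, the R-spondin receptor that marks intestinal stem cells, stood at 8.32 in Apc Min/Min ESC, against 6.42, 6.48 and 6.32 in the RTCs, all 3 below the array median, and 7.01 in Apc +/+ ESC (1.92 ± 0.20, adjusted p = 0.00394). Myc, the growth regulator, stood at 11.50 in Apc Min/Min ESC, against 9.38, 10.42 and 10.15 in the RTCs (1.52 ± 0.35, adjusted p = 0.0390, up to 0.300 on deposited values). The secreted inhibitors Notum and Apcdd1 rose by 0.88 ± 0.21 and 0.94 ± 0.23, less than 2-fold. In the MEFs without 4-OHT, Lgr5 stood at 9.63 and 8.98, Sox9 at 10.62 and 11.19 and Myc at 11.60 and 11.16. Dkk1 and Sox17 were low there, at 7.34 and 7.50 and at 6.35 and 6.54. The part of fibroblasts in the values of these targets was not tested. Ascl2, a bHLH factor of intestinal stem cells and trophoblast, stood at 7.61 in Apc Min/Min ESC, against 9.57, 10.06 and 9.96 in the RTCs, and 9.68 in Apc +/+ ESC. Sp5 and Lef1 stood at 8.65 and 9.27 in Apc Min/Min ESC, against RTC values of 9.04 to 9.20 and 9.69 to 9.95, and were not called. Among 36 pathway components tested, Fzd6, a Frizzled receptor, was the only one called, at 9.51 in Apc Min/Min ESC, against 7.68, 7.80 and 7.80 in the RTCs. Sfrp2, a secreted Frizzled-related protein, stood at 8.81 in Apc Min/Min ESC, against 7.62, 7.79 and 7.55 in the RTCs and 9.42 in Apc +/+ ESC, and was not called. These 2 components above the range became 1 on deposited values and 0 with a stricter filter.

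**Figure D5:**
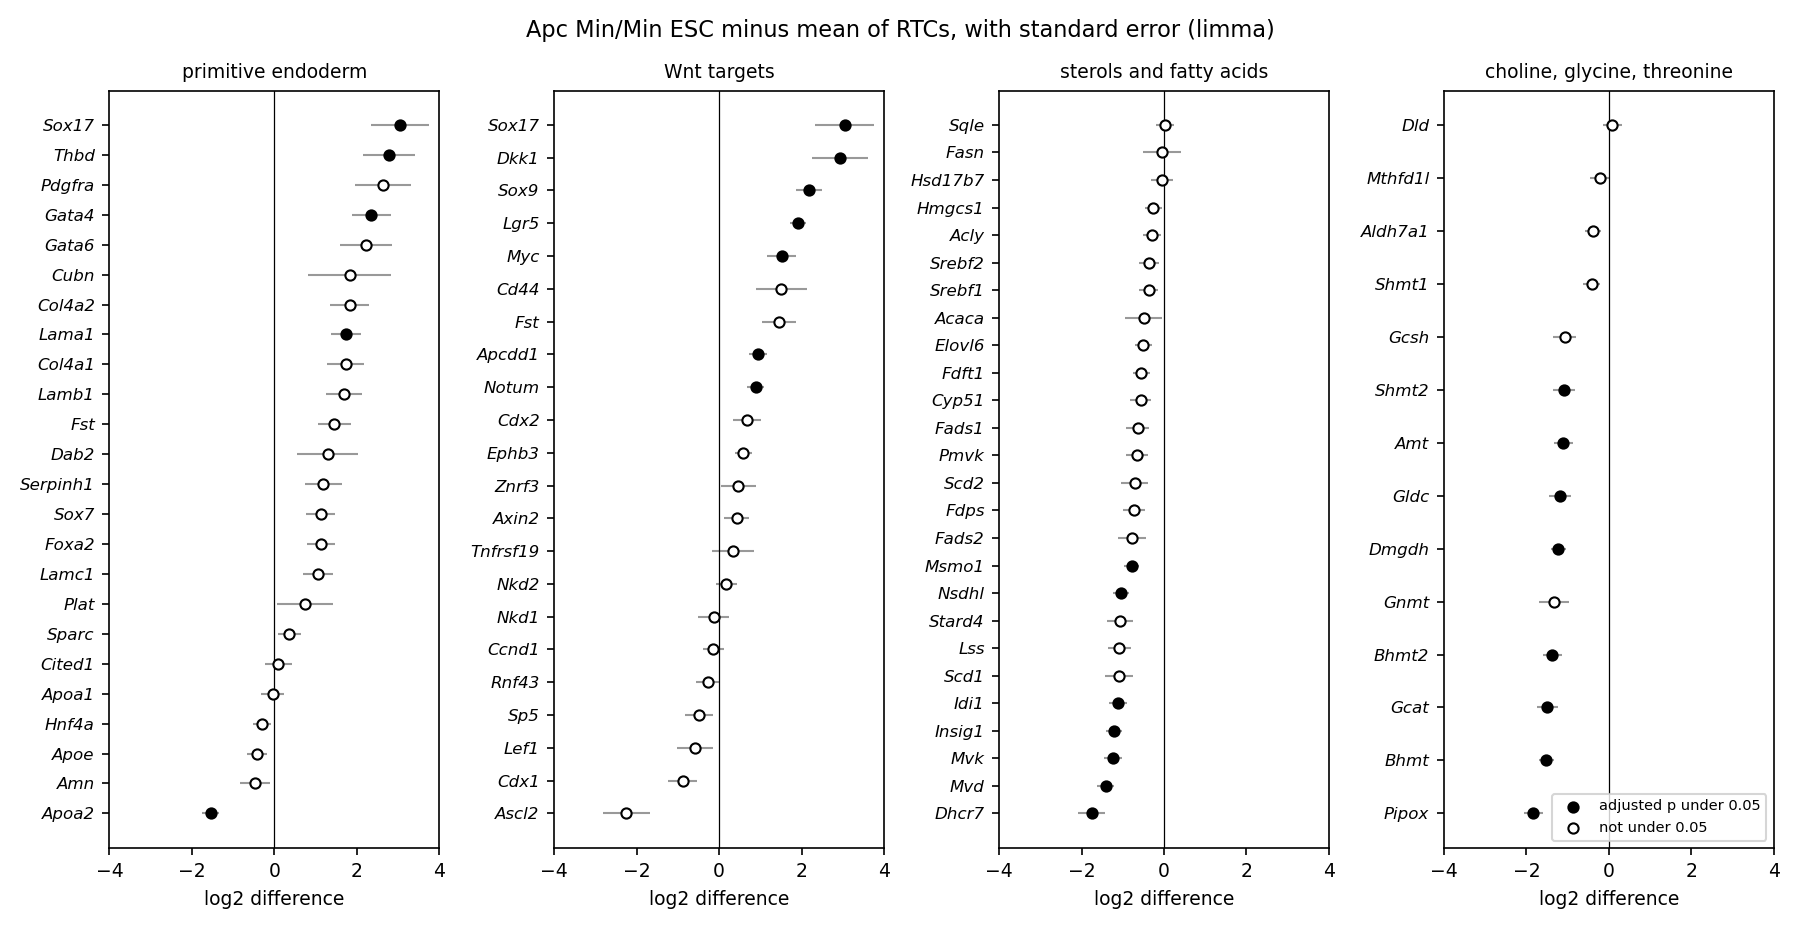
Log2 difference, Apc Min/Min ESC minus the mean of the RTCs (horizontal), for every tested gene of 4 lists, with bars of 1 standard error from limma. Filled points passed an adjusted p of 0.05 and open points did not; Sox17 heads the first and second lists at 3.05, Dhcr7 ends the third at -1.76 and Pipox the fourth at -1.83.

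Fibroblast and matrix genes formed the second large group above the range, with 10 of 33 tested genes above, 0 below and 4 called, and a median difference of 0.98. At least 2-fold above the range lay 2.37% of all genes. By any amount, 31 of the 33 lay above the range, against 33.8% of all genes. Dcn, the proteoglycan decorin, stood at 12.23 in Apc Min/Min ESC, against 9.29, 8.92 and 8.59 in the RTCs (3.30 ± 0.56, adjusted p = 0.0163). Postn, periostin, stood at 12.31 in Apc Min/Min ESC, against 8.94, 10.02 and 9.83 in the RTCs (adjusted p = 0.0467, up to 0.108 without RTC 3). Col12a1, a fibril-associated collagen, and Timp3, a metalloproteinase inhibitor, rose by 2.51 ± 0.47 and 2.20 ± 0.46. The other ESC arrays also held Dcn, which stood at 11.10 in Apc +/+ ESC, 11.02 in Apc Min/+ ESC and 9.56 in S33-ES. Lum, lumican, stood at 8.56 in Apc Min/Min ESC, against 6.19, 6.31 and 6.27 in the RTCs, and 8.77 in Apc +/+ ESC, and was not called (adjusted p = 0.108). The 7 fibroblast markers averaged 10.50 in Apc Min/Min ESC, against 8.68, 9.44 and 9.31 in the RTCs, with 10.29 in Apc +/+ ESC, 10.25 in Apc Min/+ ESC and 12.34 and 12.31 in the MEFs. All 7 were above the array median in Apc Min/Min ESC, and 5, 6 and 6 of them in RTC 1, 2 and 3. The labels do not say whether feeder cells were present, and the part of such cells in these values was not tested.

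Of 31 naive pluripotency genes tested, 0 lay above the range and 3 below, against 2.37% and 2.82% of all genes. The median difference of the 31 was -0.17. Pecam1, an adhesion molecule of naive cells, stood at 8.66 in Apc Min/Min ESC, against 9.95, 9.80 and 9.87 in the RTCs, and was called lower (limma, adjusted p = 0.0417, up to 0.226 on deposited values). Dppa3, the oocyte and germline factor Stella, stood at 6.99 in Apc Min/Min ESC, against 8.07, 8.24 and 8.60 in the RTCs, and 9.37 in Apc +/+ ESC, which was higher than all 4. Gdf3, a TGF-beta family ligand, stood at 10.79 in Apc Min/Min ESC, against 12.06, 11.92 and 12.05 in the RTCs. Neither Dppa3 nor Gdf3 was called (adjusted p = 0.135 and 0.126). With a stricter filter on dim genes 1 naive gene lay below the range in place of 3. Of 13 genes of primed pluripotency, 0 lay at least 2-fold outside the range and 0 were called. By any amount, 8 of the 13 lay below it and 1 above, with a median difference of -0.56.

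Trophoblast genes were also read, since the labels name TS medium for an Apc Min/Min ESC culture. The part of medium in their values was not tested. Of 24 tested, 3 lay at least 2-fold above the range and 1 below, and 1 was called, Fgfr2. Against these counts, 2.37% of all genes tested lay at least 2-fold above the range and 2.82% below. By any amount, 14 of the 24 trophoblast genes lay above and 6 below, against 33.8% and 40.5% of all genes. The 3 above became 0 on deposited values and 1 with a stricter filter on dim genes, and the 1 below became 3 without RTC 1. Krt8, a simple-epithelium keratin, stood at 12.87 in Apc Min/Min ESC, against 10.36, 11.86 and 11.21 in the RTCs, and 11.76 in Apc +/+ ESC (adjusted p = 0.0800). Of the 7 defining markers, Gata3 stood at 6.63 in Apc Min/Min ESC, against 7.50, 8.14 and 8.11 in the RTCs, and Krt7, a keratin, at 8.84, against 8.08, 7.85 and 7.96. Elf5, at 6.59 in Apc Min/Min ESC and 6.51 to 6.63 in the RTCs, was below the array median in all 4 arrays, and Eomes, at 9.60 in Apc Min/Min ESC and 9.46 to 10.18 in the RTCs, was inside their range. Cdx2, given above, Hand1 at 8.08 and Tfap2c at 9.34 in Apc Min/Min ESC were less than 2-fold above the range, and none of the markers tested was called. Together the markers averaged 8.37 in Apc Min/Min ESC, against 8.03, 8.31 and 8.46 in the RTCs and 8.90 in Apc +/+ ESC, with Apc Min/Min ESC inside the span of the RTCs.

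Enzymes of choline, glycine and threonine breakdown, a pathway that feeds one-carbon units and is known to be active in mouse ESCs, were lower in Apc Min/Min ESC. Of 14 tested, 6 lay below the range and 0 above, limma called 8 lower, and the median difference was -1.15. Pipox, which oxidises sarcosine and pipecolic acid, stood at 7.74 in Apc Min/Min ESC, against 9.44, 9.53 and 9.77 in the RTCs, and 11.14 in Apc +/+ ESC (adjusted p = 0.00654). Gcat, which splits the threonine product 2-amino-3-ketobutyrate, stood at 8.83 in Apc Min/Min ESC, against 10.19, 10.33 and 10.45 in the RTCs. Dmgdh, dimethylglycine dehydrogenase, stood at 8.47 in Apc Min/Min ESC, against 9.70, 9.70 and 9.70 in the RTCs, and 6.47 in Apc +/+ ESC. Bhmt and Bhmt2, which pass methyl groups to homocysteine and lie near Dmgdh on chromosome 13, stood at 7.24 and 8.07 in Apc Min/Min ESC, RTC values from 8.62 to 8.87 and from 9.30 to 9.72, and 7.08 and 7.08 in Apc +/+ ESC. The RTC arrays were thus the high ones for Bhmt, Bhmt2 and Dmgdh, while for Pipox Apc Min/Min ESC was the lowest of these lines. The probe sets of Bhmt disagreed, with differences from -1.68 to -0.12. Gldc, Amt and Shmt2, of the glycine cleavage route, fell by 1.19, 1.11 and 1.09 (adjusted p = 0.0402, 0.0300 and 0.0454). With a stricter filter on dim genes, 1 of the list lay below the range in place of 6. In the main run, 2.82% of all genes tested lay below the range.

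Genes of sterol and fatty acid synthesis, targets of SREBP factors, were the other metabolic group below the range, with 5 of 26 tested genes below, 0 above, 7 called lower and a median difference of -0.69. Dhcr7, the last enzyme of cholesterol synthesis, stood at 9.44 in Apc Min/Min ESC, against 10.79, 11.36 and 11.44 in the RTCs, and 10.48 in Apc +/+ ESC (-1.76 ± 0.33, adjusted p = 0.0211). Mvd and Mvk, enzymes of the mevalonate route, stood at 8.52 and 9.06 in Apc Min/Min ESC, RTC values from 9.88 to 9.97 and from 10.19 to 10.40, and 10.28 and 10.23 in Apc +/+ ESC. Insig1, the sterol sensor's retention partner, and Idi1, an isomerase of the same route, fell by 1.21 and 1.12. Nsdhl and Msmo1 fell by 1.04 and 0.78, less than 2-fold outside the range. Hmgcs1, Sqle and Fasn differed by -0.26, 0.03 and -0.04 and were not called. At least 2-fold below the range lay 2.82% of all genes. By any amount, 23 of the 26 lay below the range, against 40.5% of all genes. Leaving out RTC 1, 9 of these genes lay below the range, and with arrays centred on their median 3 did.

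Of 20 imprinted genes tested, 4 lay above the range and 2 below, against 2.37% and 2.82% of all genes. The 4 above were Dcn, described with the fibroblast genes, and Airn, Peg3 and Meg3. Dlk1 and Igf2r, also given here, lay less than 2-fold above it. Meg3, a maternally expressed non-coding RNA, stood at 11.53 in Apc Min/Min ESC, against 10.34, 8.87 and 8.46 in the RTCs, and Dlk1, the paternally expressed gene of the same domain, at 11.19, against 9.81, 10.21 and 10.28. Dlk1 rose by 1.09 ± 0.23 (limma, adjusted p = 0.0336), and Meg3 was not called (adjusted p = 0.0596). Peg3, a paternally expressed zinc finger gene, stood at 11.64 in Apc Min/Min ESC, against 8.80, 10.24 and 9.33 in the RTCs, and 11.44 in Apc +/+ ESC (adjusted p = 0.145). Airn, the non-coding RNA that runs through Igf2r, stood at 10.87 in Apc Min/Min ESC, against 8.89, 9.27 and 7.37 in the RTCs, and Igf2r at 11.40, against 10.40, 10.86 and 10.71, and neither was called (adjusted p = 0.0600 and 0.163). The 2 genes below the range, Phlda2 and Ascl2, belong to the same imprinted domain of chromosome 7. Of their neighbours in that domain, Cdkn1c stood at 8.49 in Apc Min/Min ESC, against 8.09, 8.69 and 8.86 in the RTCs, and Slc22a18 at 9.11, against 9.69, 9.36 and 9.58, and neither was called.

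Of 22 germline genes tested, 4 lay below the range and 1 above, against 2.82% and 2.37% of all genes. On deposited values or with a stricter filter on dim genes the germline counts were 2 and 0. Without RTC 2 there were 2 above. The list's median difference was 0.05, with 9 genes above the range and 8 below by any amount, so the list as a whole was not lower. Rhox9, the 1 gene 2-fold above, stood at 8.97 in Apc Min/Min ESC, against 7.78, 7.93 and 7.56 in the RTCs, and 11.62 in Apc +/+ ESC. Mael, which guards germ cells against transposons, stood at 9.55 in Apc Min/Min ESC, against 11.42, 11.38 and 11.28 in the RTCs, and 10.28 in Apc +/+ ESC (limma, -1.81 ± 0.20, adjusted p = 0.00435). Hormad1 and Tex11, both of meiosis, fell by 1.56 and 1.10 (adjusted p = 0.0436 and 0.0480). Of 6 lymphoid genes tested, 3 lay at least 2-fold below the range and 0 above, and 2 were called; with a stricter filter on dim genes 1 lay below. Cd3e, a T cell receptor chain, stood at 7.73 in Apc Min/Min ESC, against 9.63, 9.72 and 10.01 in the RTCs, and 7.91 in Apc +/+ ESC, and Zap70, its signalling kinase, at 6.94, against 8.97, 8.52 and 8.58. Both were called lower (adjusted p = 0.00902 and 0.0145). Cd79a, a B cell receptor chain, stood at 6.46 in Apc Min/Min ESC, against 8.05, 7.80 and 7.96 in the RTCs, and Cd3g at 7.31, against 8.48, 7.76 and 8.33, and neither was called (adjusted p = 0.119 and 0.0858). Thy1 stood at 11.66 in Apc Min/Min ESC, against 10.48, 11.31 and 11.12 in the RTCs, above their range and not called. The complement gene C1qc, a macrophage marker, stood at 6.55 in Apc Min/Min ESC, against 6.82, 9.21 and 9.70 in RTC 1, 2 and 3, so only RTC 2 and RTC 3 were high, and it lay less than 2-fold outside the range. Of 15 myeloid genes tested, 1 lay below the range, against 2.82% of all genes. Without RTC 1, 7 of the 15 lay below it.

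Several genes of other lists are given singly, with counts of their lists. Slc7a11, the cystine transporter induced by ATF4 and NRF2, stood at 8.46 in Apc Min/Min ESC, against 6.27, 6.61 and 6.48 in the RTCs (limma, 2.01 ± 0.40, adjusted p = 0.0248), while 4 of the 28 ATF4 and amino acid genes were called lower, Ddit4, Slc7a3, Shmt2 and Gpt2. Below the range lay 2 of the 28, 7 without RTC 1, 1 with arrays centred on their median or a stricter filter, and 0 on deposited values. Ccne1, cyclin E1, stood at 10.84 in Apc Min/Min ESC, against 11.93, 12.16 and 12.21 in the RTCs, and 12.69 in Apc +/+ ESC (adjusted p = 0.0126), the 1 of 33 cell cycle genes below the range, where 2 lay without RTC 1 and 0 on deposited values. Plk2 and Gadd45g, p53-responsive genes, rose by 1.57 ± 0.36 and 1.86 ± 0.34, and Sesn1, another, fell by 1.43 on the log2 scale. Stat2, a factor of interferon signalling, fell by 1.37, alone of 19 interferon genes to be called. Egln3, a prolyl hydroxylase that responds to hypoxia, fell by 1.60 (adjusted p = 0.0476), and of 25 glycolysis and hypoxia genes 2 lay below the range and 0 above. Of the 19 interferon genes, 13 lay below the range by any amount and 1 above, with a median difference of -0.54. For the 25 glycolysis and hypoxia genes these were 21 and 3 (median -0.44), and for the 33 cell cycle genes 20 and 5 (median -0.31). The 25 p53-responsive genes had 4 below and 15 above (median 0.29). Over all genes 40.5% lay below by any amount and 33.8% above, with a median of -0.05. Oxidative phosphorylation, DNA methylation and Hox lists had 0 of 29, 0 of 14 and 0 of 11 genes at least 2-fold outside the range. By any amount, 18, 5 and 4 of their genes lay below it and 3, 2 and 6 above, and limma called 1 lower in each of the first and second lists and 0 Hox genes. Xist, the RNA of the inactive X chromosome, stood at 10.00 in Apc Min/Min ESC, against 8.57, 8.01 and 7.57 in the RTCs, and was not called (adjusted p = 0.162).

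By chromosome, genes below the range were most frequent on chromosome 7, with 54 of 944 tested genes (5.72%), against 2.82% over the genome, and least on chromosome 3, with 6 of 543 (1.10%). Genes above the range made up 1.39% on chromosome 11 at the lowest and 3.49% on chromosome 16 at the highest among the named chromosomes. These shares were looked at after the values were known and were not tested.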

How the data were processed

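The 18 arrays were given as 1 table of linear intensity values per probe set, as deposited by the authors; the background correction, summarisation and scaling behind these intensities are not given in the sources used here. Their log2 values were brought to a common distribution by quantile normalization over the 18 arrays, and the probe set of 1 symbol with the highest mean stood for each of 19938 genes. Of 28856 probe sets, 21789 had 1 symbol, 1621 several and 5443 none. Genes above the array median (percentile 50) in at least 1 of the 4 arrays compared were tested, 11774 in all. Differences were fitted with limma 3.58.1 in R 4.3.3, two-sided, with Benjamini-Hochberg adjustment over all genes tested and a threshold of 0.05; every adjusted p in the text is from this fit. It used 9 arrays, with the ESC lines Apc +/+, Apc Min/+ and S33-ES without dox as 1 group of the fit, and had 5 residual degrees of freedom. The number of arrays, with 1 for Apc Min/Min ESC, limits the precision. The fit was tested on simulated data, where all its arrays, also Apc Min/Min ESC, were drawn with the same spread per gene. Such data cannot show whether the lone Apc Min/Min ESC array varies as the others do. There the 2-fold rule took 22% of genes changed by 1 log2 unit and 97% of those changed by 2. It also took 18 unchanged genes. The members and gene lists were chosen with earlier results of these data known. Genes named by rule were Nanog, Pou5f1, Cdx2, Lgr5, Axin2, Ctnnb1 and Apc, the 15 farthest above and the 15 farthest below the range, up to 6 members of each list outside the range in each direction, and 3 genes on each side of the limit. Other genes were named after their values were seen. The derivatives share the numbers 1 and 3 with the RTC lines they came from per the labels. The deviations of same-numbered arrays correlated at 0.0962 and 0.0175. RTC 2, which has no derivative here, correlated at -0.136 with derivative 1 and 0.136 with derivative 3. With only 2 derivatives their deviations mirror each other, so these values cannot decide whether the arrays are paired. Alternatives changed the scaling, the filter, the probe set, the arrays, the variance prior, the size of the gap and the block.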

Additional observations from a re-analysis of the deposited data

How the results depend on the processing

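Alternatives changed the counts more than the directions. On log2 of the deposited values limma called 47 genes (22 higher, 25 lower), and 407 genes lay at least 2-fold outside the RTC range, 127 of them above. With each array centred on its median, limma called 435 genes, 206 of them lower. The median difference over all genes tested was -0.23 on deposited values and 0.03 after centring, against -0.05. A filter at a higher percentile left 319 genes outside the range, 158 above and 161 below. A gap of 1.5-fold counted 2045 genes (891 above, 1154 below) and a gap of 4-fold 43 (33 above, 10 below). Leaving out 1 array of the fit in turn gave 100 to 1341 limma calls, 50 to 519 of them higher and 50 to 822 lower. Leaving out 1 RTC gave 635 to 989 genes outside the range, 288 to 435 above and 347 to 554 below. With the line of origin as a replicate block limma called 746 genes, and 2 of the 118 named genes lost their call. Nanog, at -0.01, was 0.0255 after centring and -0.0691 to 0.039 without 1 RTC, never called. No other named gene reversed. Of the 81 named genes called, deposited values ended 55 calls, and leaving out Apc +/+ ESC or Apc Min/+ ESC ended 17 or 21. Of the 37 not called, 7 were called in none of the alternatives. The cause of these changes was not tested, except for those that follow by construction. A stricter filter or gap counts other genes. Leaving out an RTC can only narrow the range, so the 2-fold rule then counts as many genes or more, also in the gene lists. Leaving out either derivative leaves the other without spread to add, so both runs gave the same number of calls. With 1 Apc Min/Min ESC array, the spread between cultures of that line is unknown.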
